A study of Mus musculus with 12 samples.

Results

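The E proteins and their inhibitors were followed through 6 mouse genes, Tcf3, Tcf4, Tcf12, Id1, Id2 and Id3, chosen by name as the members of both families. Every probe whose annotated transcript belongs to one of them was taken, which gave 9 probes for these 6 of the 20018 named genes on the array. Tcf3, Tcf4 and Tcf12 had 2 probes each and the Id genes 1 each. The brightest probe of a gene carried its test, and 5 of the 6 genes could be tested, because Id1 was not well above background on all 3 arrays of any group.

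RNA came from splenic B cells of 4 groups of 3 samples, and all mice carried the B1-8hi allele (a rearranged immunoglobulin heavy chain) and floxed Sub1, the gene of the chromatin protein PC4. Control mice (B1-8hi:Sub1fl/fl) had no Cre. Knockout mice (B1-8hi:Sub1fl/fl-Mb1-Cre) carried Cre under Mb1, which is the Cd79a gene and drives it in the B lineage. Cells of each genotype were measured resting (naive) or after 72 h of differentiation stimuli, in a medium that held CD40 ligand at 0.2 ng/mL, NP-ficoll at 0.01 ng/mL, and the cytokines IL-5 at 1.5 ng/mL, IL-2 at 100 U/mL and IL-4 at 5 ng/mL. The labels give no age, and they do not say whether samples of a group came from separate mice, so the p-values speak only to how far these samples differ, which may be technical variation. Because only the knockout carried Cre, an effect of Cre or of the Cd79a insertion and an effect of losing Sub1 cannot be told apart.

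E proteins are basic helix-loop-helix transcription factors that pair with each other and bind E-box sequences of the form CANNTG. They establish B cell identity in progenitors and act again when mature B cells are activated. Id proteins have the helix-loop-helix but lack the basic, DNA-binding region, so an E protein held by an Id protein cannot bind. Tcf3 encodes E2A (E12 and E47), Tcf4 encodes E2-2 and Tcf12 encodes HEB. In mature B cells Id3 is the inhibitor usually described, while Id2 is best known from natural killer, innate lymphoid and myeloid cells.

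The promoters of Id2 and Id3 are shown because these were the Id genes whose level moved. Both are RefSeq sequences of the mouse GRCm38.p6 build, from 250 bases before to 50 bases after the start of the transcript, written on the gene's strand with E-boxes in capitals. The Id2 promoter (chr12:25096043-25096342, minus strand) and the Id3 promoter (chr4:136143572-136143871, plus strand) read 5′ to 3′ as follows.
Id2: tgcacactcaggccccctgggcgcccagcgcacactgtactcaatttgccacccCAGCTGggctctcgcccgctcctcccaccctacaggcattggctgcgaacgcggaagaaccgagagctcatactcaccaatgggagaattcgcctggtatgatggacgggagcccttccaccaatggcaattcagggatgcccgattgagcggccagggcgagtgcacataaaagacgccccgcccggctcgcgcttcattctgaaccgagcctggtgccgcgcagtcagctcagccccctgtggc
Id3: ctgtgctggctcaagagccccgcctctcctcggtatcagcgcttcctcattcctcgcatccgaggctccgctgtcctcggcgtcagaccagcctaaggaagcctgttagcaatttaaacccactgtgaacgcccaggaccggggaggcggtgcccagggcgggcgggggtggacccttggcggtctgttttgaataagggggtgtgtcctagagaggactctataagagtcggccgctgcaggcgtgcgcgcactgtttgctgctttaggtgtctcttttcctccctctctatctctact
The Id2 window held 1 E-box, CAGCTG, whose first base lies at -196 from the start. CAGCTG was found in 16.3% of 32851 mouse promoters of this length, searched on both strands, and any CANNTG in 72.3%. The Id2 window also held GGCGCC, a SMAD-type motif, at -231 (11.9% of promoters), and 3 CCAAT boxes (37.4% of promoters). The Id3 window held none of these motifs, nor CAGGTG (20.2% of promoters), GCGGGGGCG of EGR factors (2.91%) and TGGGAA (25.6%). A match is a run of letters in this window only. CAGCTG and CAGGTG are both contained in CANNTG.

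Across the whole set of arrays, 24.3% to 76.8% of spots were well above background and none was saturated. In replicate order the share was 36.6%, 24.3% and 60.1% in stimulated controls and 64.5%, 42.6% and 76.8% in the stimulated knockout. Every stimulated control array thus lay below the knockout array of its number, and the effect of this on dim genes was not tested. The lowest value belonged to control stimulated replicate 2, where the dimmest probe well above background lay at -0.10 on the log2 scale used here, against -3.70 to -1.66 on the other 11 arrays. All 10 B cell markers were well above background on all arrays except that one, where 9 were. The brighter Sub1 probe was 1.21 lower in stimulated knockout cells than in stimulated controls (log2, SE 0.19, adjusted p = 0.0114) and 0.38 lower in resting ones (adjusted p = 0.268). The stimulated call ended in 5 of 25 alternative settings, with adjusted p up to 0.137, among them leaving out knockout stimulated replicate 1 or 2 or both arrays of control replicate 1. The dimmer Sub1 probe was not lower in the stimulated knockout. It read -0.88, -2.02 (not well above background) and -0.87 in stimulated controls and -1.35, -0.88 and -1.25 in the stimulated knockout. At rest its genotypes overlapped as well. Both arrays of control replicate 1, and no other array, carried signal of the Y-linked genes Ddx3y and Eif2s3y without Xist, so results are also given without these arrays where that ends a call.

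Levels are log2 intensities relative to the array's 75th percentile, so that 0 is the intensity of that percentile, and no probe's level is set against another's. Changes are differences between group means on this scale, with the standard error of the limma fit over all 12 arrays and p-values adjusted by Benjamini-Hochberg over all 22981 features. A change is called at an adjusted p below 0.05. Among the 5 tested genes the knockout changed none in resting cells and raised Id2 in stimulated cells. Stimulation lowered Id2 and Id3 in control cells and raised Tcf4 in knockout cells. The same calls were made for 0.0131% of all features in the resting knockout comparison, 3.46% in the stimulated one, 27.8% for stimulation in control cells and 16.1% for stimulation in knockout cells. The numbers of members called for stimulation, 2 of 5 and 1 of 5, are thus close to those backgrounds, and nothing is read from them. All 5 comparisons use the same 12 arrays, and those that share a group are not independent of each other.

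**Figure D1:**
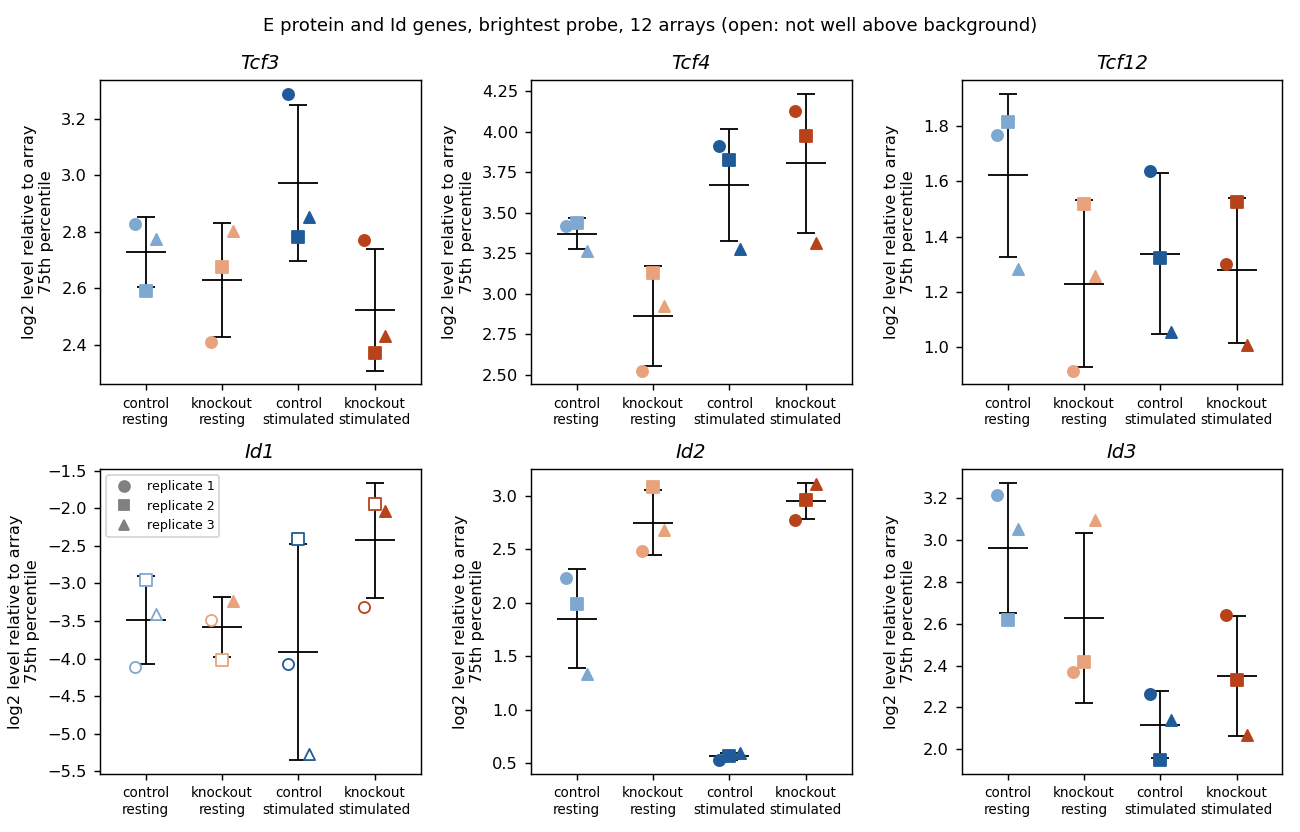
Level of each gene's brightest probe on every array (log2 intensity relative to the array's 75th percentile), by group; symbols mark the replicate, bars the mean ± SD (n = 3), and open points were not well above background. The 3 control stimulated samples lie lowest for Id2, between 0.53 and 0.59, and Id1 was well above background on only 2 arrays.

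Id2 was the only tested member that differed between the genotypes past the threshold. Its level in control stimulated cells was 0.53, 0.57 and 0.59 on the 3 arrays. In knockout stimulated cells it was 2.77, 2.96 and 3.11. The ranges lay far apart, and on the linear scale the probe read 233 to 278 intensity units in the control samples and 1047 to 2936 in the knockout samples. Id2 was therefore higher in the stimulated knockout, by 2.39 on the log2 scale or 5.23-fold (SE 0.25, adjusted p = 0.00206). It was higher in 3 of 3 same-numbered pairs, which ranges without overlap already fix. The change was 2.32 on the slide of replicates 1 and 2 and 2.52 on the slide of replicate 3. It was the 54th largest increase among 12295 named genes. The call was kept in 24 of 25 alternative settings, with values from 1.83 to 2.79. It was lost when the fit used only the 6 stimulated arrays (adjusted p = 0.0555), a fit in which no feature at all passed. With the replicate number as a block 1865 features rather than 796 passed, and Id2 stayed the only member among them.

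In resting cells Id2 was at 2.23, 1.99 and 1.33 in the control samples and at 2.49, 3.08 and 2.68 in the knockout samples. The knockout samples were all above the control samples, yet the change of 0.90 did not pass (SE 0.25, adjusted p = 0.190, unadjusted p = 0.00462). It was the only one of the 5 tested members with an unadjusted p below 0.05 there. Of all 22981 features 4534 had one, so this count does not set Id2 apart. The groups of 36.4% of all features did not overlap in this comparison, 9.73% with the knockout higher and 26.7% with it lower.

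Stimulation lowered Id2 in control cells, from a mean of 1.85 ± 0.46 (SD, n = 3) to 0.56 ± 0.03 (SD, n = 3). The fall of 1.29 on the log2 scale, 2.44-fold, had an SE of 0.25 and an adjusted p of 0.00306, and it held in all 25 alternative settings. In knockout cells the mean was 2.75 ± 0.30 (SD, n = 3) at rest and 2.95 ± 0.17 (SD, n = 3) after stimulation, with overlapping values (change 0.20, SE 0.25, adjusted p = 0.701). The stimulation changes of the genotypes differed by 1.49 (SE 0.35), in the same direction in 3 of 3 replicate numbers. This difference did not pass (adjusted p = 0.140, unadjusted p = 0.00165). Over the alternatives its adjusted p ran from 0.0227 to 0.704. It passed with a trended, robust variance prior and among the probes well above background on all arrays (adjusted p = 0.0247). No other tested member had an unadjusted p below 0.05 for the interaction. Of all 22981 features 2445 had one, and nothing is read from the count of 1 among 5 members. By the adjusted p 0.144% of all features passed for the interaction. In order of level, knockout stimulated and knockout resting cells overlapped, control resting cells lay below them, and control stimulated cells lay lowest without overlap.

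Id3 was the other inhibitor that could be tested. It was at 3.21, 2.62 and 3.05 in control resting cells and at 2.26, 1.95 and 2.14 in control stimulated cells. The ranges did not overlap, as for Id2 and for 39.7% of all features (19.5% lower after stimulation), so that 3 of 3 pairs were bound to be lower. Id3 fell by 0.84 on the log2 scale, 1.79-fold (SE 0.26, adjusted p = 0.0318). In 8 of 25 alternative settings this call ended. Among these were leaving out control resting replicate 1 (adjusted p = 0.121) or 3 (0.0946), control stimulated replicate 2 (0.0839) or 3 (0.0649), or both arrays of control replicate 1 (0.145).

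In knockout cells Id3 was at 2.37, 2.42 and 3.09 at rest and at 2.64, 2.33 and 2.07 after stimulation. These values overlapped (change -0.28, SE 0.26, adjusted p = 0.579), with 0.09 on the slide of replicates 1 and 2 and -1.02 on the other. The knockout change was -0.33 at rest (adjusted p = 0.404) and 0.23 after stimulation (adjusted p = 0.603), and samples of both genotypes overlapped in each state. The stimulation changes of the genotypes differed by 0.56 (SE 0.37, adjusted p = 0.660).

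The Id1 probe was well above background on 2 of 12 arrays, replicate 3 of the knockout in either state. Its readings ran from -5.26 to -1.94 and most are bounds rather than levels. In a fit without the filter on dim probes it differed between the genotypes by 1.48 after stimulation (SE 0.67, adjusted p = 0.554).

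**Figure D2:**
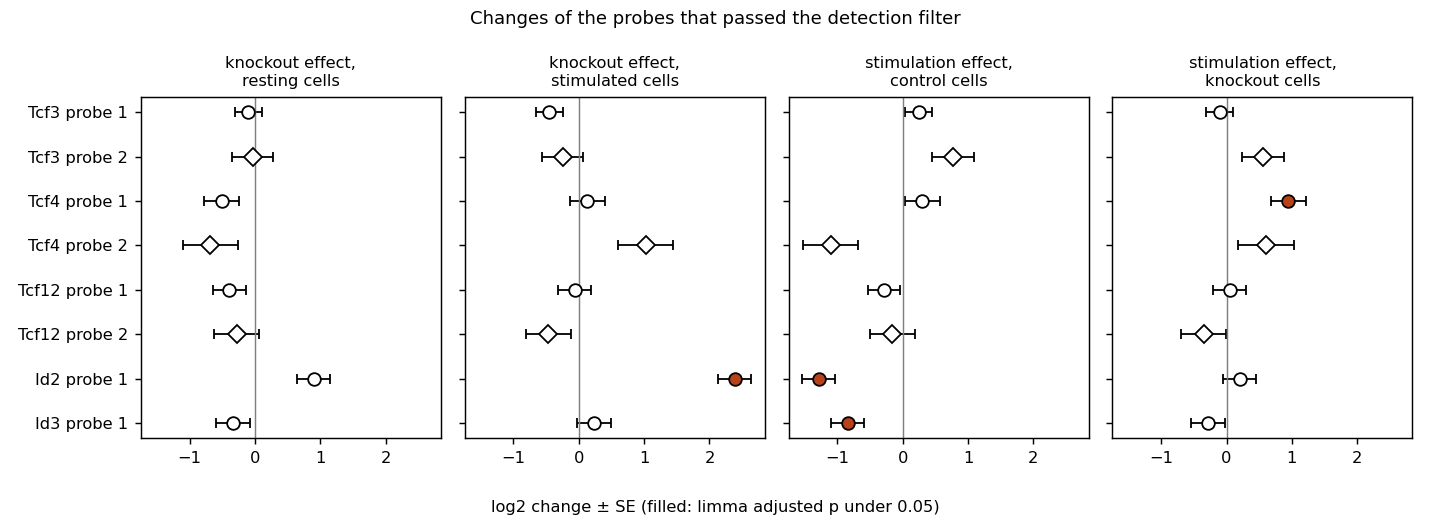
Change of each kept member probe in the knockout and stimulation comparisons (log2, bars: standard error of the fit); circles are the brighter probes, diamonds the second ones, and filled points passed at an adjusted p below 0.05. Id2 stands at 2.39 for the knockout effect in stimulated cells, and the Tcf4 probes lie on either side of 0 for stimulation in control cells.

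Among the E proteins, the brighter Tcf4 probe was at 2.53, 3.13 and 2.93 in knockout resting cells. In knockout stimulated cells it was at 4.12, 3.97 and 3.32. All stimulated samples lay above all resting ones, as for 21.7% of all features (33.7% in either direction), and Tcf4 rose by 0.94 on the log2 scale, 1.92-fold (SE 0.27, adjusted p = 0.0366). The change was 1.22 on the slide of replicates 1 and 2 and 0.39 on the other. The call ended in 14 of 25 alternative settings, including quantile normalization (change 0.67) and the fit without any one of the 6 resting arrays or without knockout stimulated replicate 1 or 2.

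The same probe was at 3.42, 3.44 and 3.26 in control resting cells and at 3.91, 3.83 and 3.28 in control stimulated cells, which overlapped (change 0.30, SE 0.27, adjusted p = 0.491). Resting knockout cells lay below all resting controls, by 0.51 (SE 0.27, adjusted p = 0.281). In stimulated cells the genotypes overlapped (change 0.13, adjusted p = 0.782).

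The second Tcf4 probe, well above background on 10 arrays, gave another picture. The arrays where it was not were knockout resting replicate 1 and control stimulated replicate 2. Readings there are bounds rather than levels, and changes that use them are not exact sizes. The second probe was at -0.37, -0.89 and -0.80 in control resting cells and at -1.11, -2.39 and -1.86 in control stimulated cells. Stimulated controls lay below resting ones by 1.10, where the first probe was 0.30 higher (-0.09 with the percentile of spots detected on all arrays), and neither passed (adjusted p = 0.0777 for the second probe, each probe as its own feature). For stimulation in knockout cells the second probe changed by 0.60 and the first by 0.94. The second did not pass (SE 0.42, adjusted p = 0.424). Its values overlapped, and it changed by 1.12 on the slide of replicates 1 and 2 and by -0.43 on the other. Between the genotypes after stimulation the second probe was at -0.36, -0.53 and -1.40 in the knockout, 1.02 above the controls (SE 0.42, 3 of 3 pairs, overlapping values), where the first probe gave 0.13. That change did not pass (adjusted p = 0.194, unadjusted p = 0.0347), nor did its interaction of 1.71 (SE 0.60, adjusted p = 0.316, unadjusted p = 0.0162). The 2 Tcf4 probes were annotated to the same transcript.

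Tcf3 was at 3.29, 2.78 and 2.85 in control stimulated cells. In knockout stimulated cells it was at 2.77, 2.37 and 2.43. All knockout samples lay just below all controls, by 0.45 (SE 0.21), and by similar amounts on both slides (-0.46 and -0.42). The difference did not pass (adjusted p = 0.232). Its size depended on the scaling, at -1.01 with median scaling and -0.13 with quantile normalization. With the percentile of spots detected on all arrays it was -0.05, and the samples overlapped. On the scale used here the groups of 24.8% of all features did not overlap in this comparison. Those lower in the knockout made up 14% of all features, and those higher 10.9%.

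Tcf3 at rest was at 2.83, 2.59 and 2.77 in control samples and at 2.41, 2.68 and 2.80 in knockout samples, which overlapped (change -0.10, adjusted p = 0.742). Stimulation changed it by 0.24 in control cells (adjusted p = 0.462) and by -0.11 in knockout cells (adjusted p = 0.825). Its second probe, on another transcript of the gene, was 0.77 higher after stimulation in control cells and 0.56 higher in knockout cells, and neither passed (adjusted p = 0.0971 and 0.296).

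The group means of Tcf12 lay closest together among the 5 tested genes, with means of 1.62 ± 0.30 in resting controls, 1.23 ± 0.30 in the resting knockout, 1.34 ± 0.29 in stimulated controls and 1.28 ± 0.26 in the stimulated knockout (SD, n = 3). All groups overlapped, its largest change was -0.39 for the knockout at rest (SE 0.25, adjusted p = 0.333), and no comparison passed. Its second probe ran from -0.94 to 0.47, and its largest change was -0.47 for the knockout after stimulation (adjusted p = 0.432).

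**Figure D3:**
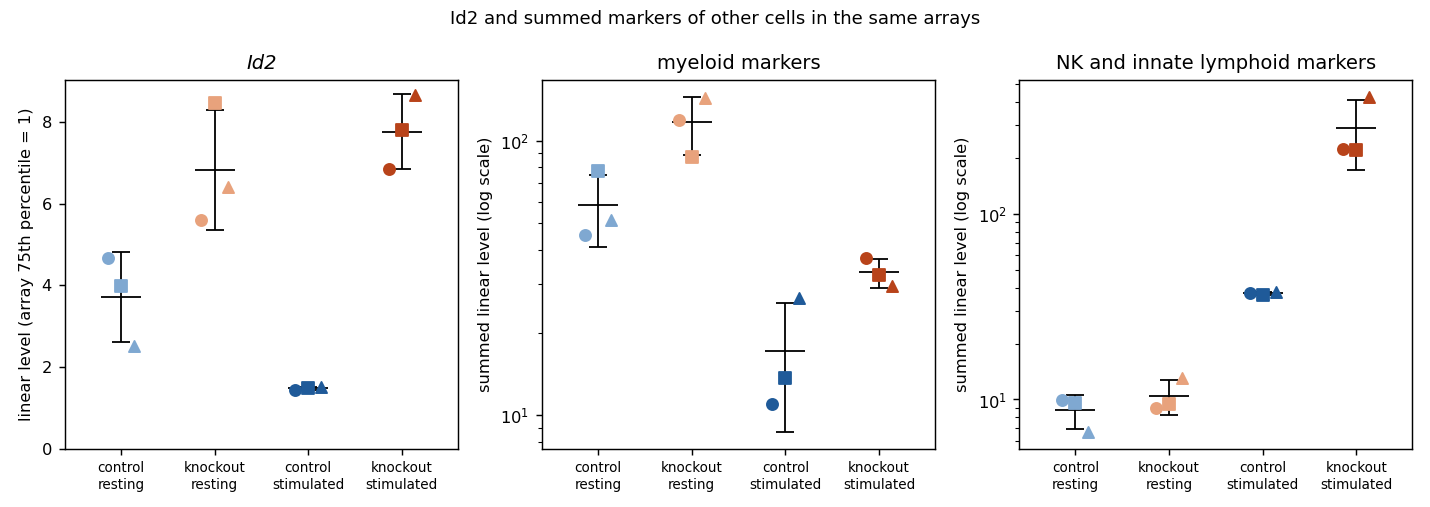
Id2 on each array (linear level, array 75th percentile = 1) beside the summed levels of myeloid and of natural killer and innate lymphoid markers (same unit, log axes), by group; symbols mark the replicate and bars the mean ± SD (n = 3). The stimulated knockout samples lie highest for the natural killer and innate lymphoid markers, at 220 to 428, and the stimulated controls lowest for Id2 and the myeloid markers.

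Since Id2 is also a gene of other cell types, markers of those cells are given beside it. In bulk RNA, a different share of cells of one type and a different amount of RNA per cell cannot be told apart. After stimulation, 4 of 11 tested myeloid markers were higher in the knockout (the macrophage genes Adgre1, C1qa, C1qb and C1qc, median change of the list 2.30) and none lower. Among the natural killer and innate lymphoid markers 5 of 8 tested were higher (the cytotoxic genes Gzma, Gzmb and Nkg7 and the regulators Eomes and Gata3, median 1.86). Of the other lists, 2 of 9 T cell, 2 of 8 plasmacytoid dendritic cell and 2 of 5 erythroid markers were higher. The background was 1.21% of features called higher, with a median change of -0.02 over all features. Of 10 B cell markers 1, Cd79a, was lower. Without both arrays of control replicate 1 the counts were 3 of the myeloid and 0 of the natural killer and innate lymphoid markers, and leaving out single arrays gave 4 to 5 and 2 to 5.

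The summed level of the 12 myeloid markers on the array was 45.4 to 77.6 times the 75th percentile in control resting cells and 87.6 to 144 times in knockout resting cells. It was 10.97 to 26.8 times in control stimulated and 29.6 to 37.6 times in the stimulated knockout. Stimulated control cells were thus lowest, and S100a8, C1qa, Mpo and Cd14 were not well above background on any of their arrays. The 11 natural killer and innate lymphoid markers summed to 6.68 to 9.94 and 8.95 to 13.1 in control and knockout resting cells. They summed to 36.4 to 38.1 in stimulated controls and to 220 to 428 in the stimulated knockout, where the highest values of all groups lay.

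T cell markers summed to 13.8 to 17.2 and 13.4 to 23.1 at rest and to 20.8 to 24.5 and 31.8 to 43.0 after stimulation, in control and knockout cells respectively. The plasmacytoid dendritic cell markers, a list that holds Tcf4, overlapped between the genotypes in both states. Those of B cells summed to 996 to 1147 in resting controls and 736 to 860 in the resting knockout, and to 533 to 749 and 582 to 714 in the same order after stimulation. The erythroid markers ranged from 3.29 to 6.96 in control stimulated to 239 to 775 in knockout resting cells. The part of other cell types in the Id2 difference was not tested.

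The genes whose levels ran most like each member over the 12 arrays were found among 7051 other named genes well above background on all of them. Nearest to Id2 were Fcer1g (Pearson r = 0.96), the shared Fc receptor gamma chain, Tmem176b (0.86), and Mpeg1 (0.85), the gene of the macrophage protein perforin-2. Their changes in the stimulated knockout were 2.48, 1.26 and 2.19, a description only, since genes picked for running like Id2 share its main contrast by choice. Nearest to Id3 were Nprl3 (0.95), Esr2 (0.94) and Ncf4 (0.92), and to Tcf3 Klhdc3 (0.94), Yrdc (0.93) and Appbp2 (0.92). Nearest to Tcf4 were Ercc6l2 (0.96), Bclaf3 (0.95) and Polg2 (0.95), and to Tcf12 Eml2 (0.94), Commd8 (0.94) and Pex13 (0.94). These values describe 12 arrays that share groups, slides and scaling, and the genes were picked for being the highest.

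Of 22 partners and cofactors of E proteins, 18 could be tested. After stimulation 1 was higher and 1 lower in the knockout, with a median change of -0.10, against 1.21% and 2.26% of all features. Zeb2, a zinc finger repressor that binds E-box-like sites, had a mean of -1.50 ± 0.84 in control and 0.64 ± 0.28 in knockout stimulated cells (SD, n = 3). It was higher by 2.14 (SE 0.35, adjusted p = 0.0132), with 2.71 on one slide and 1.01 on the other, and it was well above background on 2 of 3 control stimulated arrays. Its call ended in 8 of 24 alternative settings, among them leaving out replicate 1 of either stimulated group or knockout stimulated replicate 2, while Lmo2 lost its call in 1 of 25. With the replicate block 2 of the 18 were higher and 1 lower. Lmo2, a bridging protein of complexes that hold E proteins and TAL1 or LYL1, was lower by 1.58 (SE 0.16, adjusted p = 0.00206), from 4.21 ± 0.15 to 2.63 ± 0.06 (SD, n = 3). The values of Lmo2 at rest were 4.80 ± 0.03 and 4.0 ± 0.16 (SD, n = 3), a change of -0.80 that did not pass (adjusted p = 0.158). None of the 18 passed at rest by the limma test. An unadjusted p below 0.05 was found for 9 of them and for 4534 of all 22981 features.

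Stimulation of control cells raised 3 of these 18 genes and lowered 4, against 14.7% and 13.1% of all features. Zeb2 fell by 2.79 and Hes1, a Notch-induced repressor, fell by 2.28, while Gfi1 and Bhlhe41, also repressors, rose by 1.91 and 1.89 (adjusted p = 0.000202, 0.00385, 0.000507 and 0.00442). Hes1 was well above background on 1 of 3 control stimulated arrays, and Bhlhe41 on 2 of 3 in either control group. In knockout cells 2 were higher and 3 lower (background 10.9% and 5.2%). Gfi1 rose by 2.35 and Bhlhe40 by 1.40, and Tal1 fell by 2.48 and Hes1 fell by 1.91 (adjusted p = 0.000320, 0.00197, 0.0316 and 0.0174). Tal1 and Hes1 were each detected above background on 1 of 3 arrays of stimulated knockout cells, and Hes1 also on only 1 of 3 of resting ones, and their calls ended in 6 and 5 of 24 alternative settings.

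**Figure D4:**
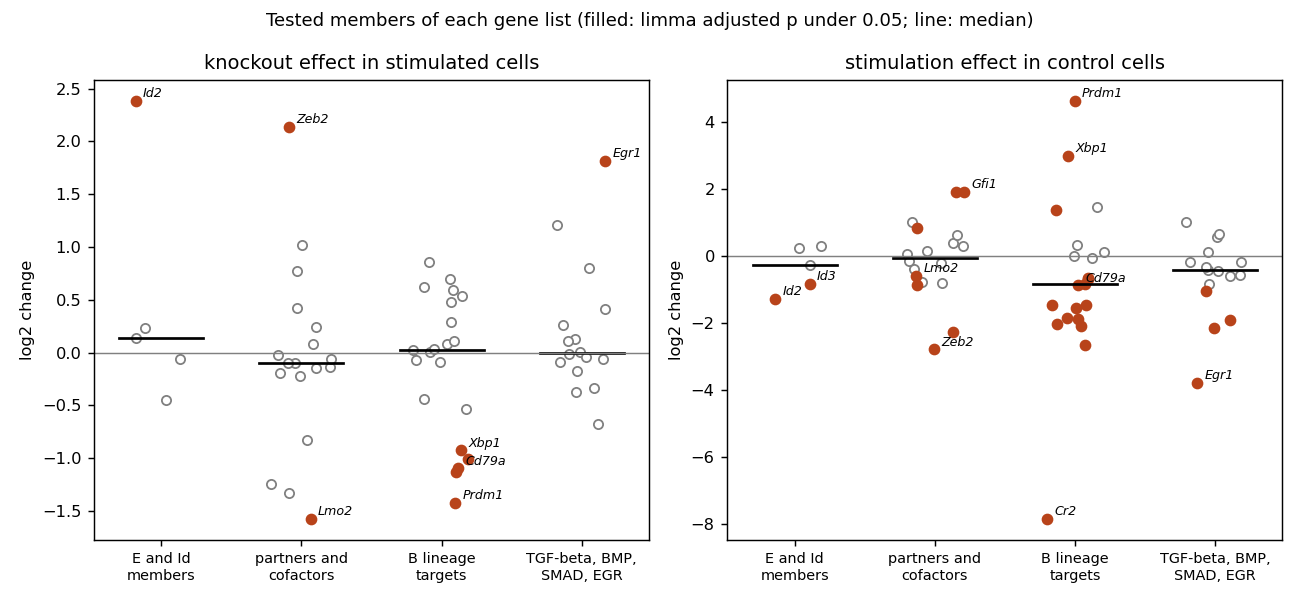
Changes (log2) of the tested genes of each list for the knockout effect in stimulated cells and the stimulation effect in control cells; filled points passed at an adjusted p below 0.05, lines mark list medians, and some of the called genes are named. In stimulated cells Zeb2 and Egr1 lie above 0, at 2.14 and 1.82, and Lmo2, Prdm1, Cd79a and Xbp1 below it.

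Of 26 genes listed as E protein targets in B lineage cells 21 could be tested. After stimulation 5 of them were lower in the knockout and none higher, with a list median of 0.02, against 2.26% of features called lower. Prdm1, the regulator of plasma cell differentiation, was lower by 1.42 (SE 0.26, adjusted p = 0.0197). Pou2af1, a B cell coactivator, had a mean of 7.76 ± 0.19 in control and 6.63 ± 0.18 in knockout stimulated cells (SD, n = 3), lower by 1.13 (adjusted p = 0.0116). Cd79a, the gene that carries Cre in the knockout, was lower by 1.10 (adjusted p = 0.0343), and Fcer2a, the IgE receptor CD23, by 1.01 (adjusted p = 0.0421). The fifth was Xbp1, a regulator of secretion, lower by 0.93 (adjusted p = 0.0499) and named after its value was seen. The split of this list depended on the scaling, with 3 higher and none lower under quantile normalization and 5 higher and 3 lower under the percentile of spots detected on all arrays, although the 5 named genes stayed negative in every setting run. The calls ended in 8 of 24 alternative settings for Prdm1, and in 6, 13, 17 and 17 of 25 for Pou2af1, Cd79a, Fcer2a and Xbp1. With the replicate block 2 were higher and 5 lower. Leaving out single arrays gave 0 to 5 lower, with 0 without knockout stimulated replicate 2 and 1 without control stimulated replicate 1 or knockout stimulated replicate 1 or 3. When control replicate 1 was left out in both states, 0 were lower. At rest none of the 21 passed by the limma test, and Cd79a was closest, at -1.54 (adjusted p = 0.0948). There 8 of the 21 had an unadjusted p below 0.05, against 4534 of all 22981 features.

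Stimulation of control cells raised 3 of the 21 and lowered 13, with a list median of -0.85, against 14.7% and 13.1% of all features and a median of 0.04. The count raised is close to that background, and over the alternative settings 2 to 4 were higher and 9 to 14 lower. Cr2, complement receptor 2, fell by 7.86 and Fcer2a fell by 2.67, while Prdm1 rose by 4.64 and Xbp1 by 3.0 (adjusted p = 2.1e-06, 2.3e-05, 3.9e-06 and 1.2e-05). Cr2 was well above background on 2 of 3 control stimulated arrays, and Prdm1 on 2 of 3 knockout resting ones. In knockout cells 3 were higher and 8 lower, with a list median of -0.43, against 10.9% and 5.2% of all features. The settings gave 2 to 3 higher and 2 to 12 lower. Cr2 fell by 5.99 and Fcer2a fell by 3.09, and Prdm1 rose by 2.85 (adjusted p = 2.0e-05, 3.4e-05 and 8.3e-05). No target passed for the interaction by the limma test, and Pou2af1 was closest, at -1.28 (adjusted p = 0.0837). For the interaction 8 of the 21 had an unadjusted p below 0.05, against 2445 of all 22981 features.

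The third list held 23 genes of the TGF-beta, BMP, SMAD and EGR pathways, which are known to control Id genes, and 16 could be tested. After stimulation Egr1, an immediate early zinc finger factor, was the only one called, with means of -1.87 ± 0.14 in control and -0.05 ± 0.32 in knockout stimulated cells (SD, n = 3). It was higher by 1.82 (SE 0.27, adjusted p = 0.00985), with 2.03 and 1.39 on the slides, and well above background on 1 of 3 control stimulated arrays. Its call ended in 3 of 24 alternative settings, with adjusted p up to 0.107 and changes from 1.01 to 2.22. The list median was -0.0037, and 2 were higher with the replicate block and 4 with the percentile of spots detected on all arrays. At rest none passed by the limma test, with Nab2, a corepressor of EGR factors, closest at -0.91 (adjusted p = 0.175). There 6 of the 16 had an unadjusted p below 0.05, against 4534 of all 22981 features.

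Stimulation of control cells lowered 4 of the 16 and raised none, against 13.1% and 14.7% of all features, with 3 to 8 lower and 0 to 1 higher over the settings. Egr1 fell by 3.79, the inhibitory Smad7 fell by 2.17, the receptor Tgfbr2 fell by 1.92 and the BMP effector Smad5 fell by 1.04 (adjusted p = 9.6e-06, 0.000195, 4.8e-05 and 0.00745). Smad7 was well above background on 2 of 3 control stimulated arrays. In knockout cells 2 were higher, close to the background of 10.9%, and 4 lower (background 5.2%), with 0 to 3 higher and 1 to 6 lower over the settings. Egr1 fell by 1.92, the receptor Acvrl1 fell by 1.08 and Smad7 fell by 1.08, while the receptor Tgfbr1 rose by 1.75 (adjusted p = 0.000853, 0.0399, 0.0211 and 0.0114). The call of Acvrl1 ended in 12 of 24 alternative settings, with adjusted p up to 0.202, and that of Smad7 in 5 of 24, with adjusted p up to 0.210. Leaving out knockout resting replicate 2 or knockout stimulated replicate 2 or 3 ended both. The change of Egr1 between the genotypes' responses, 1.87, did not pass (adjusted p = 0.0888). For this interaction 7 of 16 had an unadjusted p below 0.05, against 2445 of all 22981 features.

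**Figure D5:**
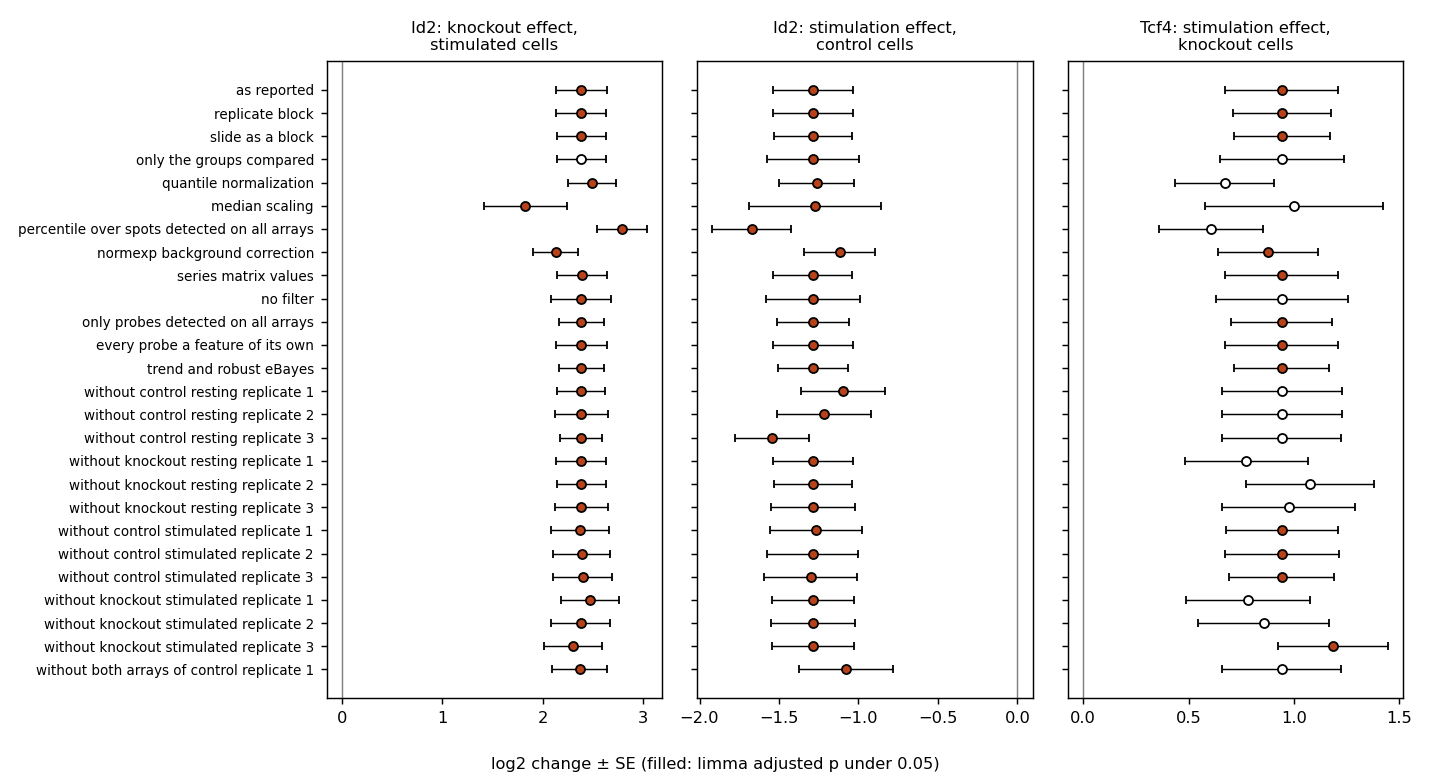
Change (log2, bars: standard error) of Id2 in the stimulated knockout, of Id2 with stimulation in control cells and of Tcf4 with stimulation in knockout cells, as reported and under each alternative setting; filled points passed at an adjusted p below 0.05. Id2 in the stimulated knockout stays between 1.83 and 2.79, and all 3 changes keep their direction in the settings drawn, while Tcf4 is called in 11 of 25 alternatives.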

How the data were processed

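The values used are deposited, background-subtracted Cy3 intensities from 12 one-colour Agilent mouse arrays, which the authors made with Feature Extraction (version 10.7.3.1 per the file headers, 9.1 per the submitters' processing notes). Amplified RNA was labelled after amplification, per the labels' protocols. The intensities in the deposited series matrix differed from these by at most 0.497%.

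After 2763 outlier spots were set missing, each log2 intensity was scaled to the 75th percentile of the 59305 spots of its array that were not controls, and a probe's spots were averaged. A probe was kept where 1 or more groups had it above background on every array (Feature Extraction's flag), which favours genes that are high in some group. Probes were named through a RefSeq table (GRCm38.p6; 26413 of 55681 named), and the brightest kept probe stood for a gene, giving 22981 features. Tests used limma 3.58.1 in R 4.3.3 (lmFit and eBayes, 12 arrays, 4 group means, 8 residual degrees of freedom), and every adjusted p is Benjamini-Hochberg over all features. The pipeline was tested on simulated data. With 3 arrays a group, the number of arrays limits the precision.

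Slide 1 held replicates 1 and 2 of every group and slide 2 held replicate 3, per the file headers. How far arrays with the same number lay from their group means correlated by 0.35, 0.33 and 0.48 in the stimulated knockout comparison and by 0.42, 0.43 and 0.51 for stimulation in control cells. Same-numbered arrays were counted as pairs there, although the labels state no pairing. These correlations do not separate a pairing from a shared slide, and control replicate 1 carried Y-linked signal while knockout replicate 1 did not. The reported standard errors and p-values do not use these pairs, and the replicate block is an alternative setting only. In the resting knockout comparison the correlations were -0.12, 0.20 and 0.39, and for stimulation in knockout cells 0.0029, 0.15 and 0.39.

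Alternatives covered the replicate block, the slide, other scalings, background correction, filters and each array left out. Named genes are the members, up to 4 called genes of each list and comparison with the largest change (or the one with the smallest p), Sub1, Cd79a and the 3 most similar genes of each tested member; 1 gene that this rule names is not reported here. The members and lists were chosen with earlier results of these data known.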

Additional observations from a re-analysis of the deposited data

How the results depend on the processing

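Over the 25 alternatives the 5 tested members gave 625 values, of which 598 stayed on their side of the threshold and 27 crossed it; 24 values turned sign, none of them called. The 1274 values of the other named genes turned no call around, and 172 lost a call while 17 gained one. With the replicate block the members called stayed 0, 1, 2, 1 and 0 (resting knockout, stimulated knockout, stimulation in control, in knockout, interaction), and the features called became 41, 1865, 7519, 4682 and 33 instead of 3, 796, 6397, 3692 and 33. With only the groups compared, the members called were 0 for the stimulated knockout (and 0 features, from 796), 1 for stimulation in control cells and 0 for stimulation in knockout cells. Median scaling, no filter, and leaving out both arrays of control replicate 1 each gave 1 and 0 for the stimulation comparisons, and quantile normalization gave 0 for stimulation in knockout cells. The interaction gained 1 member, Id2, with only probes detected on all arrays and with trend and robust eBayes. Leaving out 1 array at a time gave 1 to 2 members for stimulation in control cells and 0 to 1 in knockout cells, and 143 to 1546 features for the stimulated knockout. There 2349 features passed with the percentile over spots detected on all arrays (1979 higher, 370 lower, against 277 and 519), 678 with median scaling (81 higher, 597 lower), 537 with quantile normalization (307 higher, 230 lower), 535 with normexp, 1309 with the slide as a block, 1498 with detected probes only, 1536 with trend and robust eBayes, 56 without a filter and 60 without control replicate 1. For stimulation in control cells the detected-spot percentile gave 2484 higher and 6035 lower (from 3386 and 3011) and quantile normalization 2771 and 3785; in knockout cells these were 1794 and 3148, and 2371 and 2173 (from 2498 and 1194). Stimulation in control cells fell to 3346 features with median scaling, 3883 without a filter and 3894 without control replicate 1, and in knockout cells to 1683 and 1606 with the former 2 and to 2410 with 1 array out. The resting knockout called 0 to 90 features (more with trend and robust eBayes) and the interaction 0 to 335 over the settings. The detected-spot percentile moved the median of all features to 0.14, 0.39, -0.35, -0.23 and 0.13 from -0.21, -0.02, 0.04, 0.10 and 0.08. Relative to that median Id2 stood at 2.40 in the stimulated knockout under both. That value could not differ, because a change of percentile shifts all features of an array by the same amount. The detected-spot percentile added Tcf12 (-0.67, adjusted p = 0.0373) for stimulation in control and Tcf3 (-0.44, adjusted p = 0.0332) in knockout cells and ended the call of Tcf4 (0.61). The causes were not tested. Signal over background limits Id1, the second Tcf4 and Tcf12 probes and dim genes on control stimulated replicate 2.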
